A study of Mus musculus with 5 samples.

Results

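Clonotypes of lymph node T cells that were met in 2 or more hashtags (shared clonotypes) were compared with clonotypes of the same minimum size met in 1 hashtag (private clonotypes). A clonotype is the set of cells that carry the same receptor CDR3 nucleotide sequences, and a hashtag is an antibody with a DNA tag that marks which staining pool a cell came from. Members were cells with 200 or more genes, at most 10% mitochondrial UMIs (unique molecular identifiers, which count RNA molecules), a top hashtag of at least 10 UMIs and at least 3 times the second hashtag, a productive TRB contig, and a clonotype of 2 or more such cells. Of 13016 barcodes, 12804 passed the gene and mitochondrial limits, 10192 of these had a hashtag call, and 6974 also had a productive TRB. They formed 5712 clonotypes, of which 599 held 2 or more cells. There were 77 shared clonotypes with 265 cells and 522 private clonotypes with 1596 cells. Because hashtags and receptors chose the members, the split itself is described here and was not tested.

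The study profiled CD44-high, antigen-experienced T cells, CD4+ and CD8+, sorted from heart-draining (mediastinal) lymph nodes of C57BL/6 mice aged 2, 6, 12 and 18 months, with ageing as the one treatment named. All ages were stained with 8 hashtags in all, pooled at different ratios and run as 1 droplet preparation with a gene expression, a receptor and a hashtag library. The age behind each hashtag was not used here, so hashtags served only as blocks and were never read as ages. Each of the 8 hashtags held cells with Xist UMIs and no Y-linked UMIs (8.38% to 50.7% of its cells) and cells with Y-linked UMIs and no Xist UMIs (3.34% to 37.7%), and the labels used here do not say how many animals stood behind a hashtag.

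A T cell receptor is a pair of chains, TRA and TRB, each joined in the thymus from V and J segments, with a D segment in TRB, and with bases trimmed and added at the joints. The CDR3 spans that joint and contacts the presented peptide, and the added bases make it nearly unique to the progeny of 1 cell. Identical CDR3 sequences can also arise more than once when few bases are added, which is best known for TRA and for invariant natural killer T cells.

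The CDR3 nucleotide sequences below belong to the shared clonotypes that spanned the most hashtags or held the most cells, and to private clonotypes for comparison, 5′ to 3′. Capitals mark bases matched to neither the germline V nor the germline J segment (GENCODE M21, GRCm38), and so include any D segment bases. The first sequence was the only chain of clonotype 11 and the TRB of clonotype 2, and the next was the only chain of clonotype 7 and the TRB of the private clonotype 4, so these show the same TRB under separate clonotype numbers. The last pair are TRA chains that matched germline V and J along their whole length.
clonotypes 2 and 11, TRB: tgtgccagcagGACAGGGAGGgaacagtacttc
clonotypes 7 and 4, TRB: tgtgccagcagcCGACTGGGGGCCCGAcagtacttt
clonotype 5, TRB: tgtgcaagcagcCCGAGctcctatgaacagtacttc
clonotype 14, TRB: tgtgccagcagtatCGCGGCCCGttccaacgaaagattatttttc
clonotype 24, TRB: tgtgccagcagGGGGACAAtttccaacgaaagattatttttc
clonotype 1 (private), TRB: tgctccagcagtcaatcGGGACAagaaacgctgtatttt
clonotype 3 (private), TRB: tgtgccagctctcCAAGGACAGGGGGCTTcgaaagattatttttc
clonotype 5, TRA: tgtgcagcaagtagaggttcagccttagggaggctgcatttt
clonotype 4 (private), TRA: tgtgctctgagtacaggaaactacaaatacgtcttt

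The TRB of clonotypes 2 and 11 joined TRBV15 (chr6:41141188-41141658, plus strand) to TRBJ2-7 (chr6:41543810-41543856), with 10 bases outside the germline match in a CDR3 of 33 bases. Clonotypes 7 and 4 joined TRBV3 (chr6:41048290-41048828) to TRBJ2-5 (chr6:41543453-41543501), with 15 such bases in 36. Clonotype 5 joined TRBV16 (chr6:41151740-41152230) to TRBJ2-7 with 5 such bases, the fewest of the TRB chains shown. Its TRA joined TRAV14D-2 (chr14:52948568-52949169) to TRAJ18 (chr14:54200777-54200842) with 0. The TRA of private clonotype 4, TRAV12D-1 (chr14:52844465-52845041) with TRAJ40 (chr14:54177921-54177981), also had 0. A TRA with every base matched to germline V or J was thus present on both sides of the split. An added base that equals the germline base counts as matched, so the absence of added bases was not shown.

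Depth was that of 1 droplet run: the 6974 kept cells held 30552500 gene UMIs in all, and the summed UMIs per hashtag over cells of clonotypes of 2 or more ranged from 139936 in Hashtag2 to 2163679 in Hashtag7. Kept cells per hashtag ranged from 549 (Hashtag2) to 1439 (Hashtag7). The 8 T cell markers examined (Cd3d, Cd3e, Cd3g, Trac, Trbc1, Trbc2, Cd28 and Lck) were all detected in both classes, with a summed level of 3951 to 6387 CPM (UMIs scaled to the same total per sum) over the hashtags in shared and 4701 to 7297 CPM in private cells. The lymph node run had 7 cell barcodes in common with the heart run of 2 months and 0 with that of 18 months.

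Shared clonotypes were a minority of all sizes. They made up 12.9% of clonotypes of 2 or more cells (exact 95% interval 10.3 to 15.8), 42 of 363 clonotypes of 2 cells (11.6%), 21 of 116 of 3 cells (18.1%) and 14 of 120 of 4 or more (11.7%). For scale, 86.2% of all pairs of kept cells lay in different hashtags. In all 599 clonotypes every cell had the same set of CDR3 sequences, as the clonotype rule requires. These intervals, like the others below, cover counting error only.

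Nearly every shared clonotype spanned exactly 2 hashtags, most often with a single cell in one of them. Of the 77, 76 lay in exactly 2 hashtags, and clonotype 11 lay in 3. Of the 35 with 3 or more cells, 32 had exactly 1 cell outside the hashtag that held most of them (the home hashtag), and 143 of their 181 cells lay in that hashtag. Much of this is fixed by clonotype size. A shared clonotype of 2 cells always has 1 cell in each of 2 hashtags, and one of 3 cells in 2 hashtags always has 1 outside. Of the 35, 21 had exactly 3 cells, so apart from clonotype 11 only the 14 of 4 or more cells could differ. Clonotype 2, the largest, had 30 cells in Hashtag7 and 1 in Hashtag8. Clonotype 7 had 14 cells in Hashtag7 and 1 in Hashtag4. Clonotype 5 had 10 cells in Hashtag8 and 1 in Hashtag5, and clonotype 24 had 6 in Hashtag7 and 1 in Hashtag3. Clonotype 14 differed, with 8 cells in Hashtag6 and 2 in Hashtag1. Clonotype 11 had 1 cell in each of Hashtag5, Hashtag7 and Hashtag8. The 4 largest private clonotypes, numbers 1, 3, 4 and 6, held 49, 23, 21 and 17 cells, all in Hashtag7.

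**Figure D1:**
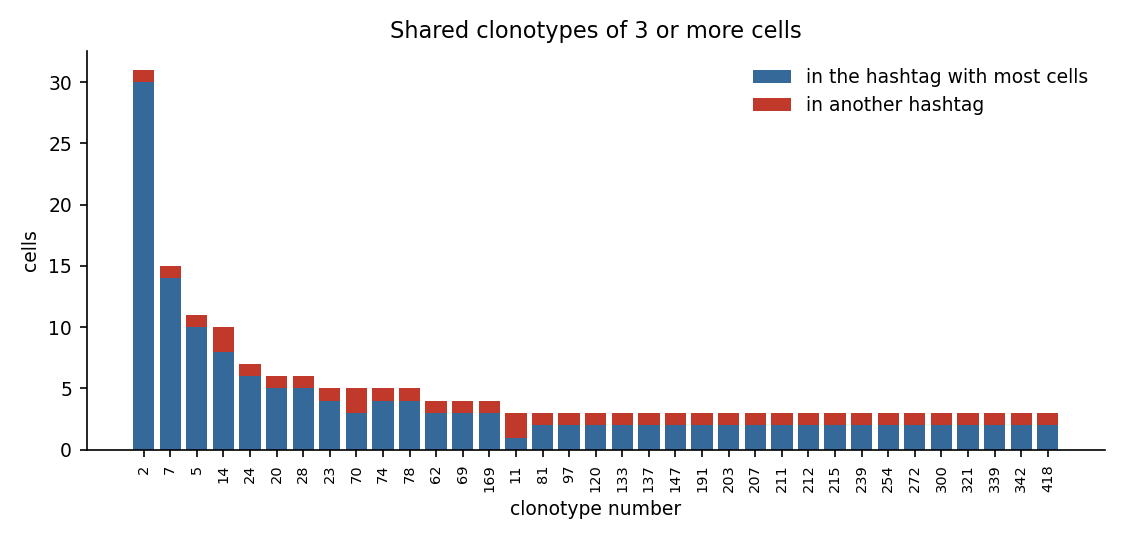
Cells (y axis) of the 35 shared clonotypes with 3 or more cells (x axis, clonotype number), split into cells in the hashtag that held most of them (blue) and cells in another hashtag (red); in 32 of the 35 the red segment is 1 cell. For clonotype 11, with 1 cell in each of 3 hashtags, the first was taken as the home.

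The shared clonotypes touched all 8 hashtags unevenly. The pairs with most were Hashtag5 with Hashtag8 and Hashtag7 with Hashtag8, at 9 clonotypes each, then Hashtag2 with Hashtag7 at 7 and Hashtag3 with Hashtag6 at 6. In 6 of the pairs there was none. Of the 77, 55 involved Hashtag7 or Hashtag8, the hashtags with the most kept cells. Within a hashtag, shared clonotypes were 18.7% (Hashtag7) to 32.0% (Hashtag3) of its clonotypes of 2 or more cells, and the intervals of these 2 overlapped (13.1 to 25.4 and 19.5 to 46.7). Hashtag2, with the fewest kept cells, shared 7 of its 9 such clonotypes with Hashtag7 and none with Hashtag8.

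**Figure D2:**
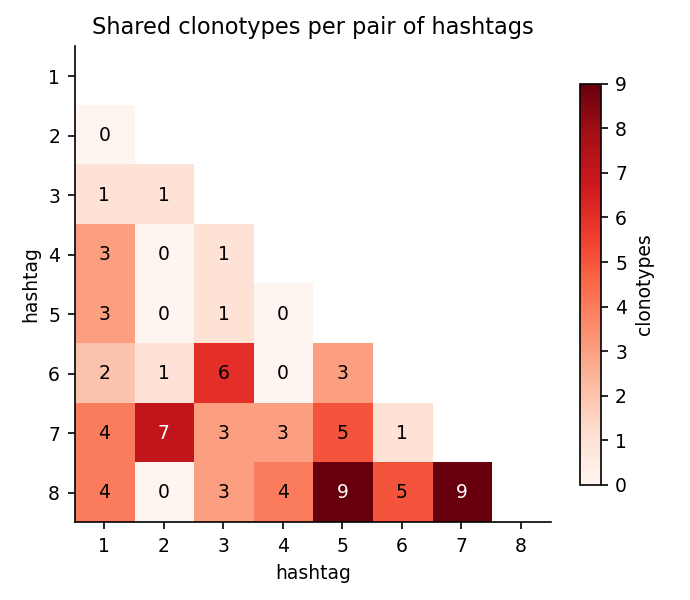
Number of shared clonotypes (color and printed count) for each pair of the 8 hashtags (both axes); clonotype 11 counts in 3 pairs. The highest count is 9, for Hashtag5 with Hashtag8 and for Hashtag7 with Hashtag8.

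The number of shared clonotypes moved with the margin between the top and the second hashtag. It was 124 with a margin of at least 2 times, 77 at 3 times, 43 at 5 times, 17 at 10 times and 4 at 20 times, while private clonotypes went from 563 to 522, 469, 409 and 336. As a share of clonotypes of 2 or more cells, shared ones were 18.0%, 12.9%, 8.40%, 3.99% and 1.18%. Just inside the margin, 65 of 265 shared cells (24.5%, 19.5 to 30.2) and 120 of 1596 private cells (7.52%, 6.27 to 8.92) had a top hashtag 3 to under 5 times the second. Just outside it lay 515 cells with a TRB and a margin of 2 to under 3 times. At 10 times or more were 135 shared cells (50.9%) and 1322 private cells (82.8%). The rule set a minimum on this margin, and the hashtag call made the classes, so these shares are a description and were not tested. Cells of 1 clonotype are also not independent draws, which the intervals leave out. Of the 77 shared clonotypes, 49 had a cell between 3 and 5 times, and 8 had all their cells at 10 times or more.

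**Figure D3:**
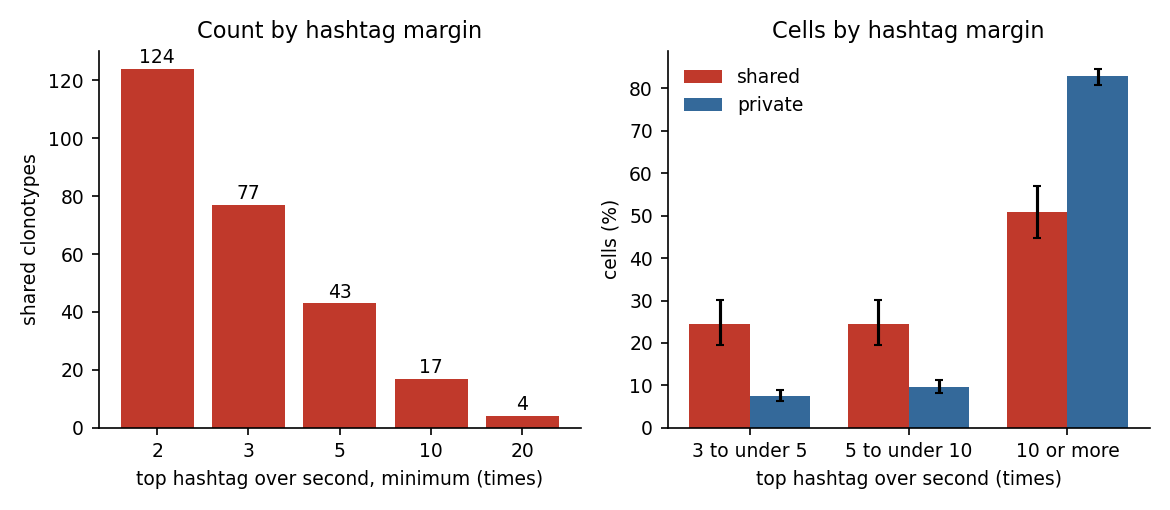
Left, number of shared clonotypes (y axis) under 5 minimum margins of the top over the second hashtag (x axis), from 124 at 2 times to 4 at 20 times. Right, share of cells in percent (y axis) by margin (x axis) in shared (red, 265 cells) and private (blue, 1596 cells) clonotypes, with exact 95% binomial intervals. At 10 times or more stand 50.9% of shared and 82.8% of private cells. The rule set a minimum on this margin, so the panel is a description and was not tested.

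The second hashtag of a shared cell was often the other hashtag of its clonotype. This held for 149 of 265 shared cells (56.2%), whereas each single hashtag was second in 4.50% (Hashtag6) to 21.4% (Hashtag7) of the 6974 kept cells. Those rates include cells with that hashtag on top, which cannot have it second, so they are low as a reference. Of the 38 cells outside the home hashtag in clonotypes of 3 or more, 30 (78.9%, 62.7 to 90.4) had the home hashtag second. In clonotypes of 2 cells, both cells had each other's hashtag second in 16 of 42 and at least 1 did in 35 of 42. The single Hashtag8 cell of clonotype 2 had 351 UMIs of Hashtag8 and 47 of Hashtag7, and 703 gene UMIs. The Hashtag4 cell of clonotype 7 had 234 UMIs of Hashtag4 and 35 of Hashtag7. The Hashtag5 cell of clonotype 5 had 295 UMIs of Hashtag5 and 31 of Hashtag8. The Hashtag3 cell of clonotype 24 had 872 UMIs of Hashtag3, 238 of Hashtag7 and 7806 gene UMIs. In each of these 4 clonotypes the home hashtag was the runner-up in the cell that lay outside it. Clonotype 11 did not show this: its cells in Hashtag5, Hashtag8 and Hashtag7 had Hashtag1, Hashtag6 and Hashtag1 second, none of them a hashtag of the clonotype. Clonotype 14 had both patterns: of its 2 Hashtag1 cells, 1 had 274 UMIs of Hashtag1 and 23 of Hashtag6, and the other had 963 of Hashtag1 and 19 of Hashtag8. The part that the second hashtag played in these assignments was not tested.

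Sex-linked transcripts type a cell without its hashtag or receptor, but the clonotypes and classes compared here rest on both. Xist is the RNA that silences an X chromosome in females, and Ddx3y, Eif2s3y, Kdm5d and Uty are Y-linked. Among clonotypes with 2 or more cells that could be typed by one or the other, 5 of 24 shared clonotypes (20.8%, 7.13 to 42.2) held both a cell with only Xist and a cell with only Y-linked UMIs. In private clonotypes this held for 4 of 192 (2.08%, 0.570 to 5.25). The intervals did not overlap, and the clonotypes of both classes that could be typed were few. Hashtags differed in their typed cells, with only Y-linked UMIs in 3.34% of Hashtag7 and 37.7% of Hashtag2 cells. A shared clonotype by definition draws on more than 1 hashtag and a private one does not. The part of this in the difference was not tested. Cells with both kinds of transcript were 4 of 265 shared (1.51%) and 14 of 1596 private cells (0.877%), and these intervals overlapped.

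A clonotype with 2 productive TRB chains was met in 14 of 77 shared (18.2%, 10.3 to 28.6) and 28 of 522 private clonotypes (5.36%, 3.59 to 7.66), against 466 of 5113 clonotypes of 1 cell (9.11%). Most T cells keep 1 TRB through allelic exclusion. By hashtag, from Hashtag1 to Hashtag8, the share with 2 TRB was 29.4, 33.3, 12.5, 9.09, 10.0, 5.56, 29.0 and 15.2% in shared and 10.6, 8.70, 2.94, 5.56, 1.79, 0, 8.15 and 4.20% in private clonotypes. It was higher in shared in 8 of 8 hashtags, by 12.8 ± 7.69 percentage points (SD of the difference, n = 8), with an exact two-sided sign-flip permutation p of 0.0078, the smallest that 8 hashtags allow, and 0.051 after Benjamini-Hochberg adjustment over the 13 measures tested. It therefore did not pass the adjusted threshold of 0.05. One of the 13 measures, the top hashtag share, was used by the rule. With it left out of the adjustment, an alternative chosen after seeing the data, the adjusted permutation p was 0.047 for this measure and for the TRA share below. The difference was 5.63 points without Hashtag7 (adjusted permutation p 0.488) and 5.57 points at a margin of 5 times (adjusted permutation p 0.432). Under both settings clonotype sizes and classes were formed anew from the cells left. A shared clonotype could then become private or fall below 2 cells, and 47 clonotypes were shared without Hashtag7. Of the 33 cells in shared clonotypes with 2 TRB, 28 (84.8%) had another hashtag of the clonotype second. In 10 of the 14 shared clonotypes with 2 TRB, and in 20 of the 28 private ones, at least 1 of these TRB chains was also the only TRB of another clonotype.

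No productive TRA was found in 25 of 77 shared (32.5%, 22.2 to 44.1) and 131 of 522 private clonotypes (25.1%, 21.4 to 29.0), against 894 of 5113 clonotypes of 1 cell (17.5%). A clonotype without TRA is defined by TRB alone. From Hashtag1 to Hashtag8, a TRA was present in 58.8, 66.7, 56.3, 54.5, 70.0, 66.7, 74.2 and 72.7% of shared and in 63.8, 69.6, 79.4, 80.6, 73.2, 77.1, 75.6 and 76.2% of private clonotypes. Shared was lower in 8 of 8 hashtags, by a mean of 65.0 against 74.4%, again at an exact sign-flip permutation p of 0.0078 and an adjusted p of 0.051, which did not pass. The gap narrowed to 4.34 points without Hashtag3 and to 3.43 points at a margin of 10 times, and widened to 16.1 points without Hashtag7. Of the 25 shared clonotypes without TRA, 16 carried a TRB also found in a clonotype with TRA, as with clonotypes 11 and 2, and 102 of 131 private ones did. Because a shared clonotype counts in each of its hashtags, the 8 hashtags are not independent; with each shared clonotype placed in 1 hashtag only, the adjusted permutation p was 0.203 for both measures.

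Exactly 1 TRA and 1 TRB were found in 40 of 77 shared (51.9%) and 352 of 522 private clonotypes (67.4%). The invariant natural killer T cell TRA, TRAV11 joined to TRAJ18, was in 0 of 77 shared clonotypes, which allows up to 4.68% by the exact interval, and in 5 of 522 private ones (0.958%). When clonotypes were defined by TRB alone, 187 rather than 77 groups spanned hashtags and 585 lay in 1. A TRB CDR3 also met in another clonotype was carried by 60 of 77 shared (77.9%) and 309 of 522 private clonotypes (59.2%).

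CDR3 length did not differ beyond the spread between hashtags. The TRB CDR3 had a median of 42 bases in both classes, with a range of 33 to 51 in shared and 27 to 54 in private clonotypes. By hashtag the mean was 39.3 to 43.3 bases in shared and 40.9 to 41.7 in private clonotypes, a difference of 0.031 ± 1.08 bases (SD, n = 8), exact sign-flip permutation p 0.938. The sign of this difference turned under several settings, as given in the closing section. Bases outside the V and J match were fewer in shared than in private clonotypes in 5 of 8 hashtags (difference -0.309 ± 1.09, exact permutation p 0.430, adjusted 0.569). TRA CDR3s had a median of 42 bases in 52 shared and 39 in 391 private clonotypes, with quartiles of 37.5 to 42 and 39 to 42.

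**Figure D4:**
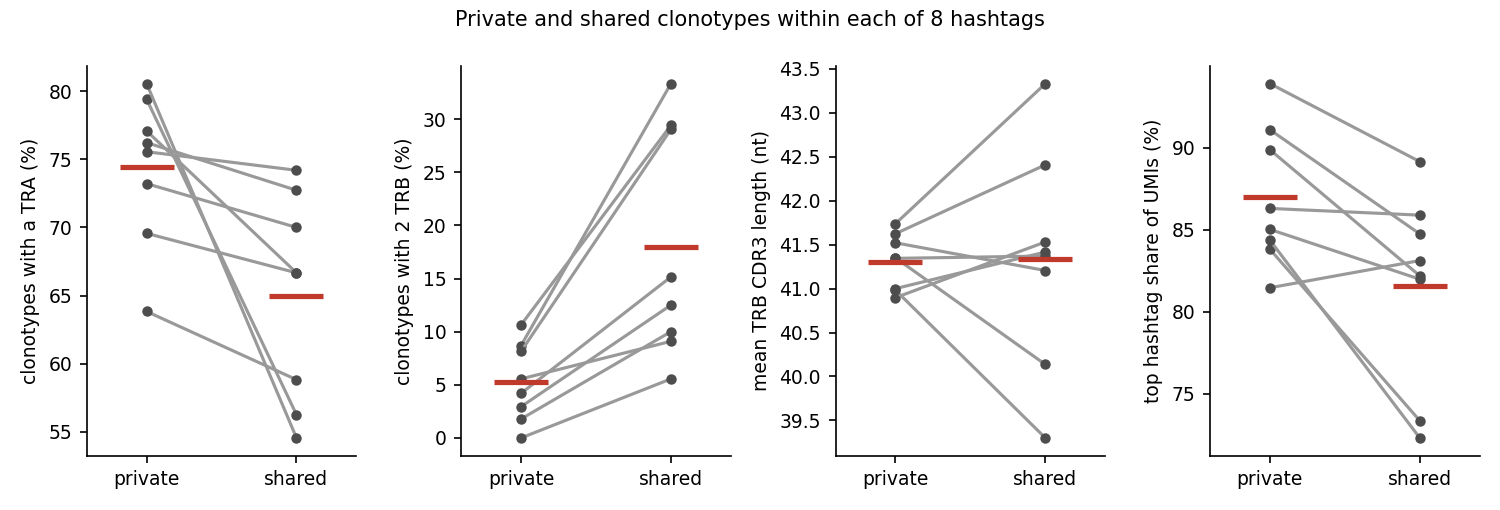
Values of private and shared clonotypes within each of the 8 hashtags (gray points joined by lines, red bars the means over hashtags): percent of clonotypes with a TRA, percent with 2 TRB, mean TRB CDR3 length in bases, and the mean percent of a cell's hashtag UMIs in its top hashtag. All 8 lines fall for TRA and rise for 2 TRB, lengths cross, and 7 of 8 lines fall for the top hashtag; y axes do not start at 0 except near it for 2 TRB.

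Segment use overlapped in every case. Shared clonotypes used 20 of the 21 TRBV calls, all 12 TRBJ, 36 of 76 TRAV and 28 of 42 TRAJ segments seen, and for none of these did the exact 95% intervals of the 2 classes lie apart. The most used V in shared clonotypes was TRBV3, in 10 of 77 (13.0%) against 53 of 522 private (10.2%), and the most used J was TRBJ2-7, in 22 of 77 (28.6%, 18.8 to 40.0) against 90 of 522 (17.2%, 14.1 to 20.8). TRBJ1-1 went the other way, at 5 of 77 (6.49%) and 67 of 522 (12.8%). Among TRA segments TRAV12-2 was in 5 of 52 shared (9.62%, 3.20 to 21.0) and 9 of 391 private clonotypes (2.30%, 1.06 to 4.32). With 52 shared clonotypes that had a TRA, only large differences in a single segment were detectable.

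Cells of shared clonotypes had fewer UMIs in the pooled medians but not consistently within hashtags. The median was 1915 UMIs and 958 genes in shared cells, 2638 UMIs and 1242 genes in private cells, and 3864 UMIs and 1608 genes in clonotypes of 1 cell. Within hashtags the mean log2 UMIs was lower in shared in 6 of 8 (10.91 against 11.04, exact permutation p 0.336, adjusted 0.546). Hashtag2 and Hashtag5 were higher in shared. The top hashtag held a mean of 81.6% of hashtag UMIs in shared and 87.0% in private cells, lower in 7 of 8 hashtags. The rule set a minimum on these UMIs, so this is a description and no test of it is given. Mitochondrial shares were 1.85 and 1.91% (exact permutation p 0.602).

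Both CD4 and CD8 cells made up the shared clonotypes. Cells with Cd8a or Cd8b1 UMIs and no Cd4 (CD8 gate) were 49.8% of shared and 42.5% of private cells, and cells with Cd4 and no Cd8 UMIs (CD4 gate) were 14.3% and 23.3%. Within hashtags neither share differed beyond the spread (exact permutation p 0.305 and 0.203, adjusted 0.546 and 0.508). Clonotype 2 was CD8 throughout, with 31 of 31 cells in the CD8 gate, and clonotype 5 had 9 of 11 there. Clonotype 14 had 4 CD4-gate cells, 0 CD8-gate cells and 2 cells holding both Cd4 and Cd8 UMIs among 10. Clonotype 24 had 3 CD4-gate cells in its home hashtag, and its 1 cell outside, in Hashtag3, was in the CD8 gate. Clonotype 7 was mixed, with 3 CD8-gate, 4 CD4-gate and 2 cells holding both Cd4 and Cd8 UMIs among 15. Cells with both were 5.66% of the shared and 2.32% of the private cells when pooled, and 9.09% and 2.33% as a mean over hashtags, higher in shared in 6 of 8 (exact permutation p 0.078, adjusted 0.254). Of clonotypes with 2 or more gated cells, 5 of 40 shared (12.5%, 4.19 to 26.8) and 13 of 300 private (4.33%, 2.33 to 7.30) held a cell of each gate. These intervals overlapped, and clonotype size was not matched. In clonotypes of exactly 2 cells, both gated, it was 1 of 18 shared (5.56%, 0.141 to 27.3) and 4 of 146 private (2.74%, 0.751 to 6.87).

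Gene expression was compared on UMIs summed per hashtag and class, with the hashtag as a block in edgeR's quasi-likelihood test. Of 2451 genes tested, 4 were called at an adjusted p under 0.05, which is 0.163%, and 117 had an unadjusted p under 0.05. Lyz2, Hist1h2ak and Hist1h2af were higher in shared cells and Gm20400 was lower; 3 called genes higher in shared are 0.122% of those tested and 1 lower is 0.0408%. Lyz2 encodes lysozyme of myeloid cells, Hist1h2ak and Hist1h2af encode replication-dependent H2A histones, and Gm20400 is annotated as an antisense RNA. The number called ranged from 0 to 7 when a hashtag was left out, was 0 at a hashtag margin of 5 times and with each shared clonotype in 1 hashtag, and was 122 without the filter on low counts. Leaving out a hashtag also changed the classes of clonotypes in the other hashtags. Shared cells then numbered 129 without Hashtag7 and 146 without Hashtag8, so these fits do not compare the same classes with 1 block fewer. In all 4 genes the hashtag ranges of the 2 classes overlapped.

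Lyz2 (chr10:117277331-117282321, minus strand) was at 1379, 1236, 934, 103, 0, 0, 63.5 and 296 CPM in shared cells from Hashtag1 to Hashtag8, and at 293, 17.7, 185, 69.9, 57.5, 33.3, 16.3 and 15.7 CPM in private cells. Shared was higher in 6 of 8 hashtags and at 0 in Hashtag5 and Hashtag6. The fitted log2 ratio was 2.32 ± 0.46 (SE), edgeR adjusted p 0.034. It rested on few cells: 18 of 265 shared cells had a Lyz2 UMI, and 5 of them held 85.1% of the 188 UMIs. With a hashtag left out it was called in 3 of the 8 fits (without Hashtag4, Hashtag5 or Hashtag6). It was tested and not called without Hashtag2 (ratio 1.43, edgeR adjusted p 0.999) or Hashtag3 (2.06, 0.141), and it fell below the filter on low counts, and so was not tested, without Hashtag1, Hashtag7 or Hashtag8.

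The 6 myeloid markers examined, Lyz2 among them, summed to 0 to 1543 CPM in shared and 23.1 to 297 CPM in private cells, with 3 of the 6 at 0 UMIs in shared cells. The 6 B cell markers examined summed to a median of 383 CPM (119 to 1708) in shared and 475 CPM (218 to 1467) in private cells. Only 2 of them were tested, 1 with a ratio above 0 (1.06) and 1 under 0 (-0.45), and neither was called. Class II antigen presentation genes, picked after their values were seen, had high fitted ratios that were not called over all 8 hashtags: H2-Eb1 1.81 ± 0.50 (SE, edgeR adjusted p 0.290), H2-Ab1 1.41 ± 0.42 (0.477) and Cd74, the invariant chain, 1.32 ± 0.45 (0.940). H2-Aa was at 1.46 ± 0.50 (SE, edgeR adjusted p 0.961), higher in shared in 5 of 8 hashtags. Without Hashtag1, 5 genes were called: Cd74, H2-Aa, H2-Ab1 and H2-Eb1, higher in shared cells, and Cd40lg, lower. H2-Ab1 and H2-Eb1 were called without cells of more than 1 TRB or 2 TRA, and H2-Eb1 was called with only shared cells outside the home hashtag, a comparison added after seeing the data. In H2-Eb1, 5 cells held 64.7% of the 309 UMIs of shared cells. The part of these cells or of free RNA in the Lyz2 result was not tested.

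Hist1h2ak (chr13:21753435-21753827) was at 257, 300, 64.4, 0, 519, 113, 87.4 and 78.5 CPM in shared and 113, 8.86, 34.6, 90.4, 28.8, 5.55, 45.7 and 7.56 CPM in private cells from Hashtag1 to Hashtag8. Hashtag4 was the only one of the 8 in which private was higher. The log2 ratio was 2.19 ± 0.40 (SE), edgeR adjusted p 0.034, with 21 of 265 shared cells holding a UMI and 5 cells holding 60.0% of the 120. Hist1h2af (chr13:23533906-23534304) was also higher in 7 of 8 hashtags, at a median of 110 CPM in shared (0 to 245) and 35.8 CPM in private cells (9.72 to 86.3), log2 ratio 1.69 ± 0.32. Both belong to a family of near-identical copies, so reads can be split between members and the value of any 1 copy is uncertain. All 8 genes named Hist1 to Hist4 that were tested, a list added after the values were seen, had fitted ratios above 0 (median 1.47), 2 of them called. Over all 2451 genes tested, 47.7% had a ratio above 0 and 0.163% were called. Members of this list vary together over hashtags, and the list was not tested. With a hashtag left out, Hist1h2ak was called in 3 of the 8 fits (without Hashtag4, Hashtag6 or Hashtag8), was tested and not called without Hashtag1, Hashtag2, Hashtag3 or Hashtag7, and fell below the filter on low counts without Hashtag5. Hist1h2af was called in none of the 8 fits: it was tested in 3 of them (without Hashtag1, Hashtag2 or Hashtag3, edgeR adjusted p 0.056, 0.999 and 0.077) and fell below the filter in the other 5.

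Gm20400 (chr6:142161493-142173796) was at 70.1, 74.9, 64.4, 51.4, 37.7, 12.5, 47.7 and 30.2 CPM in shared and 117, 248, 34.6, 61.7, 98.3, 133, 132 and 75.6 CPM in private cells. Shared was lower in 7 of 8 hashtags, with Hashtag3 the exception. The log2 ratio was -1.41 ± 0.28 (SE), edgeR adjusted p 0.034, from 30 UMIs in shared and 558 in private cells. With a hashtag left out, it was called only without Hashtag4 (edgeR adjusted p 0.027). It was not called in 6 fits (edgeR adjusted p 0.066 to 0.959, ratio between -1.57 and -1.09), and without Hashtag5 it fell below the filter on low counts. The strand setting of the counting is not named in the labels or notes, so its reads cannot be told apart from those of an overlapping gene.

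**Figure D5:**
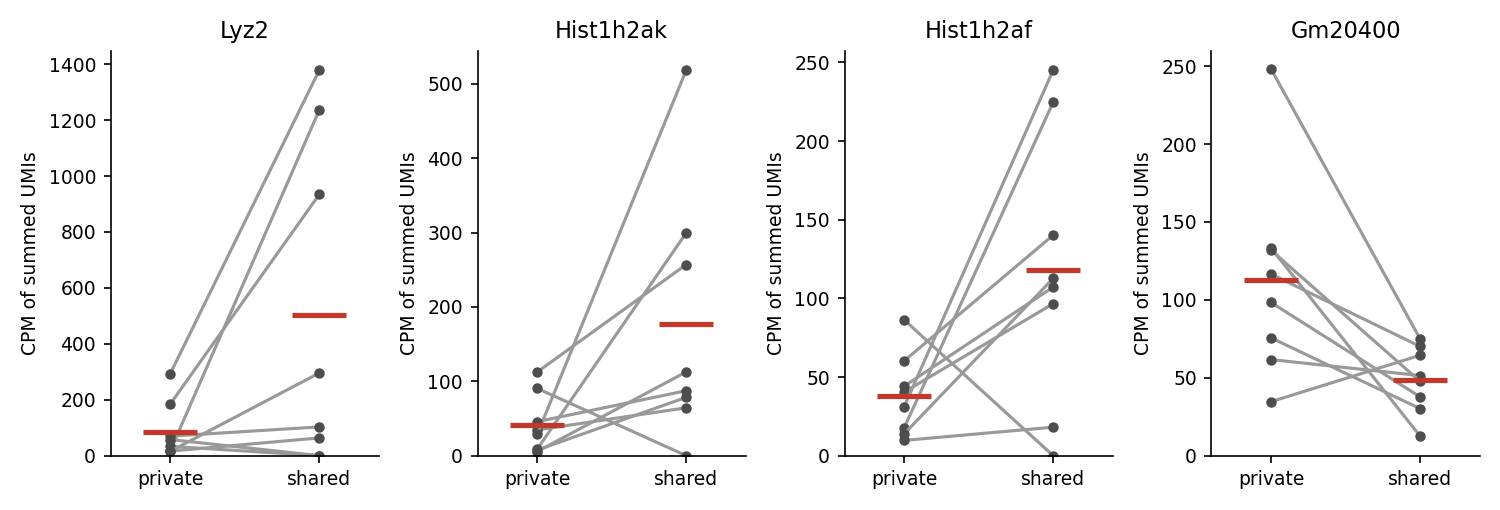
CPM of summed UMIs (y axes, from 0) in private and shared cells of each of the 8 hashtags (gray points joined by lines, red bars the means) for the 4 called genes. Lyz2 is spread from 0 to 1379 CPM in shared cells, and the ranges of the 2 classes overlap in every panel.

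None of the 13 pathway and cell state lists examined held a called gene. Over all 2451 genes only 0.163% were called, so lists of this size would seldom hold a called gene. The median log2 ratio of all genes was -0.01, 47.7% had a ratio above 0 and 4.77% had an unadjusted p under 0.05. Members of a list vary together over hashtags, and no test of a list was made. Rrm2, Pclaf and Cd247 below were chosen after their values were seen. The 10 cell cycle genes tested of 20 all had fitted ratios above 0, with a median of 0.58, and 6 had an unadjusted p under 0.05. Rrm2, a subunit of ribonucleotide reductase, was at 1.33 ± 0.35 (SE, edgeR adjusted p 0.250) and Pclaf, a PCNA partner, at 1.39 ± 0.40 (0.352). In shared cells, 5 cells held 52.1% of the Rrm2 UMIs and 5 held 56.8% of the Pclaf UMIs. Mki67, on the same list, was too sparse to test, with a UMI in 7.92% of shared and 6.52% of private cells. Its CPM was higher in shared in 4 hashtags and lower in 4. Hmgb2, also listed, was called lower in CD4-gate cells alone (-1.95). The cell cycle median was -0.09 without Hashtag5, -0.03 with each clonotype weighted equally and -0.39 at a hashtag margin of 10 times. Of 17 TCR signalling genes, 16 had ratios under 0 (median -0.21), with Cd247, the zeta chain of the receptor complex, at -0.57 ± 0.15 (SE, edgeR adjusted p 0.268); the median was 0.08 in CD8-gate cells alone and 0.04 in CD4-gate cells alone. All 12 mitochondrially encoded genes tested had ratios under 0 (median -0.17), which turned to 0.05 without Hashtag5 and 0.39 in CD4-gate cells. Naive and central memory genes (10 tested) had a median of -0.11, effector and cytotoxic genes (11 tested) 0.05, regulatory T cell genes (7 tested) 0.07, checkpoint genes (6 tested) -0.18, follicular helper genes (6 tested) -0.30, interferon gamma response genes (14 tested) 0.03 and type I interferon genes (8 tested) 0.02. These medians were not stable in sign. Of the alternatives that gave a value, the sign turned in 4 of 26 for the naive list, 14 of 26 for the effector list, 11 of 25 for the regulatory list, 6 of 25 for the checkpoint list, 2 of 25 for the follicular helper list, 9 of 26 for the interferon gamma list and 15 of 25 for the type I interferon list. At a hashtag margin of 10 times the effector median was -1.19, the checkpoint median 0.58, the follicular helper median 0.34 and the regulatory median 0.99, and in CD4-gate cells the naive median was 0.67. The margin of 10 times left only 48 shared cells of 17 clonotypes, and 5 hashtags entered that fit.

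Of 24 T cell genes examined singly, 15 had enough UMIs to be tested and none was called. Over all 2451 genes tested 0.163% were called, so no call among 15 says little about these genes. Of the 15, 5 had ratios above 0 and 10 under 0, and the smallest unadjusted edgeR p was 0.063, for Cxcr5. Ccl5, a chemokine of effector CD8 cells, was in 65.3% of shared and 61.0% of private cells, with a median of 3460 CPM (1265 to 22945) in shared and 4791 CPM (350 to 17007) in private cells over the hashtags, log2 ratio 0.33 ± 0.31 (SE). Nkg7, a cytotoxic granule gene, was at 0.15 ± 0.20, Gzmk, a granzyme of memory-like CD8 cells, at -0.17 ± 0.40 and Cd8b1 at 0.24 ± 0.20. Cd4 was at -0.39 ± 0.25, Ccr7, a lymph node homing receptor, at -0.40 ± 0.24 and Pdcd1, the PD-1 checkpoint receptor, at -0.31 ± 0.21. Cxcr5, the receptor that guides cells to follicles, was at -0.52 ± 0.27 and Tox, a regulator of exhaustion, at -0.06 ± 0.23. Foxp3, the regulatory T cell factor, was too sparse to test, at 33 UMIs in 21 of 265 shared cells (7.92%) and 165 UMIs in 90 of 1596 private cells (5.64%). Gzmb was in 3.02 and 3.51% and Ifng in 4.15 and 4.89% of cells. Klrb1c, an NK receptor of NKT cells, had 0 UMIs in shared and 12 in private cells.

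In CD4-gate cells alone, 5 of 839 genes (0.596%) were called over 4 hashtags: Lgals1 (log2 ratio -2.48 ± 0.39 SE, edgeR adjusted p 0.010), S100a6 (-2.26 ± 0.40, 0.012), Hmgb2 (-1.95 ± 0.33, 0.011) and Crip1 (-1.49 ± 0.28, 0.019) were lower and Malat1 (0.58 ± 0.12, 0.036) was higher in shared cells. Lgals1, S100a6 and Crip1 are genes known to be high in effector and memory T cells. In CD8-gate cells alone, edgeR called 0 of 987 genes and 39 had an unadjusted p under 0.05. The difference between the gates was not tested, and the 4 hashtags of the CD4 comparison had 5 to 10 shared cells each. Clonotypes 7 and 24 gave most of the 10 shared CD4-gate cells of Hashtag7, and clonotype 14 gave 4 of the 10 of Hashtag6. The part of single clonotypes in the 5 CD4-gate calls was not tested.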

How the data were processed

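Gene and hashtag UMI counts and receptor contigs were the authors' deposited output of Cell Ranger 3.1.0 on mm10 (GRCm38), per the submitters' processing notes. UMI counts were used as deposited; contig UMI counts came from the deposited annotation. The deposited clonotype list also gives each clonotype's fraction of cells, which was not used. Clonotype numbers are the deposited ones. Filters and hashtag calls are given in the report; no doublet caller was run, and the authors' own UMI maximum per cell was applied only as an alternative.

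CDR3 bases were matched to GENCODE M21 germline V and J segments, with at least 6 matching bases required; 31 of 641 TRB chains in clonotypes of 2 or more cells had no such match and no value. Counts were summed per hashtag and class (at least 5 cells each, all 8 hashtags), leaving out 260 receptor segment genes, and tested with edgeR 4.0.16 (R 4.3.3; TMM, filterByExpr, hashtag as block), with p-values adjusted over all genes tested. DESeq2 1.42.0 and limma 3.58.1 on log2(CPM + 10) were alternatives. Where a hashtag was left out, its cells were removed before clonotype sizes and the shared and private classes were formed. On simulated counts for 2451 genes, edgeR recovered 87% of 200 genes changed 2-fold, with 13 false calls, and 100% at 4-fold, also with 13. The simulated sums were drawn independently from 1 pooled profile, with no hashtag effect and no clonotype shared between hashtags. Recovery in the real sums was therefore not measured. The 13 clonotype and cell measures were compared by an exact two-sided sign-flip permutation over the 8 hashtags (Python 3.11.15, SciPy 1.17.1), whose smallest p is 0.0078. Intervals on shares are exact (Clopper-Pearson, 95%). Nothing in the labels used here says that hashtags are separate animals, so p-values measure the spread between hashtags of 1 pooled run.

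Named genes were the called genes with a mean of at least 10 UMIs over the sums, at most 10 in each direction, plus 24 T cell genes (1 further gene of the rule is not reported here); class II, histone, Rrm2, Pclaf and Cd247 values were chosen after they were seen. Named clonotypes were the 6 shared ones that span most hashtags, ties going to more cells and then the lower number, so that all but clonotype 11 were picked by size, and the 4 largest private ones. The members and lists were chosen with earlier results of these data known.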

Additional observations from a re-analysis of the deposited data

Results flagged for a closer look

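Among the 22 sets of 8 hashtag values examined, 1 held a value far from the rest, and chance flags about 1 in 20 such sets. Gm20400 in private cells of Hashtag2 stood at 248 CPM, while the other 7 hashtags ran from 34.6 to 133 CPM; the gap to the nearest was 0.538 of the whole range, above the limit of 0.526. That sum held 28 Gm20400 UMIs. Without Hashtag2 the log2 ratio of shared over private was -1.57 rather than -1.41, with an edgeR adjusted p of 0.206.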

How the results depend on the processing

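Over 721 recomputed values of 34 results, 572 kept their direction and side of the threshold, 87 changed sign (none of them called at an adjusted p under 0.05 in either fit), 33 lost a gene call, 27 counts moved by more than 1.5 times and 2 newly passed the threshold: with the top hashtag share left out of the adjustment, the differences of 12.8 points in 2 TRB and -9.45 points in TRA had an adjusted permutation p of 0.047. The cause was not tested, except where a setting by its construction leaves fewer cells or hashtags. The margins of 2 and 20 times, the authors' UMI maximum, the fit on cells outside the home hashtag and the adjustment without the top hashtag share were chosen after seeing the data.

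The number of shared clonotypes was 77, and 43, 17, 4 and 124 at hashtag margins of 5, 10, 20 and 2 times, 42 with only 2-cell clonotypes, 40 with only 1 TRA and 1 TRB, 187 by TRB alone, and 45 (without Hashtag8) to 68 with a hashtag left out; without Hashtag7 it was 47.

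The number of genes called was 4, and 0 at a margin of 5 times, 1 at 10 times, 1 with only 2-cell clonotypes, 0 with only 1 TRA and 1 TRB, 2 at the authors' UMI maximum, 0 with each shared clonotype in 1 hashtag, 0 in CD8-gate cells, 7 without the largest shared clonotype, 2 by DESeq2, 122 without the filter on low counts (42 higher, 80 lower), 0 without the replicate block by hashtag and 0 by limma with clonotypes weighted equally. With a hashtag left out it was 0 (without Hashtag2, Hashtag3 or Hashtag7) to 7 (without Hashtag4). Where edgeR or limma called 0, 39 to 155 genes had an unadjusted p under 0.05. Without the filter the median log2 ratio of all genes was -0.27, against -0.01.

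Differences of shared minus private, or log2 ratios for genes, that changed sign were as follows. TRB CDR3 length was -0.273, -0.255 and -0.398 bases at margins of 5, 20 and 2 times, -0.00396 at up to 5% mitochondrial UMIs, -0.140 without cells of extra chains, -1.03 with only 1 TRA and 1 TRB, -0.0751 with 50 hashtag UMIs and -0.0131 at the authors' UMI maximum. At a margin of 5 times, TRB bases outside the match were 0.310, mitochondrial UMIs 0.140 points, Cd8b1 -0.039, Ikzf2 0.017, Nkg7 -0.016, Pdcd1 0.10 and Tox 0.24. At 10 times, TRB bases outside the match were 1.35, CD8-gate cells -11.9 points, CD4-gate cells 5.18 points, genes per cell 6.16, mitochondrial UMIs 0.143 points, Cd4 0.40, Cd8a -1.61, Cd8b1 -1.30, Ikzf2 0.85, Ccl5 -1.66, Nkg7 -1.44 and Pdcd1 0.90. At 20 times, 2 TRA was -4.03, 2 TRB -3.23 and CD8-gate cells -38.1 points, from 17 shared cells of 4 clonotypes over 5 hashtags. Without cells of extra chains, mitochondrial UMIs were 0.0358 points and Tox 0.050. With only 1 TRA and 1 TRB, mitochondrial UMIs were 0.0575 points, Pdcd1 0.057 and Tox 0.095. With only 2-cell clonotypes, mitochondrial UMIs were 0.0225 points, Cd4 0.018, Ccl5 -0.40, Nkg7 -0.15, S1pr1 0.30 and Tox 0.18. In CD4-gate cells, Cd4 was 0.15, Ikzf2 0.042, Ccl5 -1.10, Nkg7 -0.44 and Cxcr3 0.22. In CD8-gate cells, Cd8a was -0.12, Cd8b1 -0.040, Gzmk 0.048, Nkg7 -0.037 and Il7r -0.067. Gzmk was 0.062 by DESeq2 and 0.018 without the replicate block. Nkg7 was -0.074 and Tox 0.0025 with 20 cells per sum, and Nkg7 was -0.034 without the largest shared clonotype. With only cells outside the home hashtag, Nkg7 was -0.12 and S1pr1 0.54. Without the filter, Nkg7 was -0.082 and Il7r -0.12. Tox was 0.019 at the authors' UMI maximum and 0.032 with each shared clonotype in 1 hashtag.

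With a hashtag left out, the ranges that crossed 0 were -0.312 to 0.469 bases for TRB CDR3 length, -1.52 to 12.5 points for CD8-gate cells, -117 to 15.3 genes per cell, -0.159 to 0.0036 points for mitochondrial UMIs, -0.71 to 0.15 for Cd4, -0.14 to 0.46 for Cd8a, -0.0021 to 0.36 for Cd8b1, -0.52 to 0.13 for Ikzf2, -0.35 to 0.75 for Ccl5, -0.62 to 0.24 for Gzmk, -0.23 to 0.42 for Nkg7, -0.030 to 0.32 for Il7r, -0.52 to 4.1e-05 for S1pr1, -0.69 to 0.021 for Cxcr3 and -0.64 to 0.11 for Tox. The TRA share was lower in shared clonotypes under each alternative in which it could differ (-16.1 to -3.43 points); with only 1 TRA and 1 TRB it is 100% in both classes by construction. Depth limits what can be seen: 265 shared cells gave sums of as few as 19459 UMIs, in Hashtag4.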

Other observations

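In clonotypes of exactly 2 cells, the larger cell had a median of 1.34 times the UMIs of the smaller in 42 shared clonotypes and 1.25 times in 321 private ones. Over all 3258 pairs of cells within private clonotypes of 4 or more cells the median was 1.68 times.

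Cells with under 1000 UMIs were 50 of 265 shared cells (18.9%), 238 of 1596 private cells (14.9%) and 320 of 5113 cells of single-cell clonotypes (6.26%). In shared clonotypes of 3 or more cells, the 38 cells outside the home hashtag had a median of 1716 UMIs and the 143 cells inside it 2624.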
